A study of Mus musculus with 11 samples.

Results

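The 14-3-3 proteins are encoded in the mouse by 7 genes, *Ywhab*, *Ywhae*, *Ywhag*, *Ywhah*, *Ywhaq*, *Ywhaz*, and *Sfn*, and their mRNA levels were examined in mouse Leydig tumor cells after *Mamld1* knockdown. All probes whose RefSeq accession belonged to 1 of these genes were taken, which gave 12 of the 41174 probes and 7 of the 17016 named genes on the array. *Ywhah* and *Ywhag* had 1 probe each, and the other 5 genes had 2, which are called here the brighter and the dimmer probe of the gene. *Ywhah* was chosen for its rise with both siRNAs. Its values are therefore given as a description with no test, and the tests below concern the 11 probes of the other 6 genes.

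The 14-3-3 proteins are small, acidic dimers that bind other proteins at phosphorylated serine or threonine. Bound clients are held in the cytoplasm, masked, stabilized, or brought together, and the dimers can be formed from the same or from different family members. The family is abundant in brain and is found in nearly all cells, except that 14-3-3 sigma, the product of *Sfn*, is best known from epithelia. In Leydig cells, 14-3-3 gamma, the product of *Ywhag*, is known to bind the steroidogenic acute regulatory protein, and 14-3-3 epsilon, the product of *Ywhae*, is known as a partner of the outer mitochondrial membrane channel Vdac1, and both are described as restraints on steroid production.

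RNA of MLTC-1 cells (MLTCs), a cultured line derived from a mouse Leydig cell tumor, was hybridized to 11 one-color arrays. The control group, with non-targeting RNA 4611G, had 4 arrays, the siRNA1-transfected group 4, and the siRNA2-transfected group 3. The siRNAs are RNA duplexes of different sequence against *Mamld1*. Each RNA was used at 20 nM with Lipofectamine RNAiMAX, and the transfected cells were incubated for 48 hours. Per the methods of the study, hCG was then added, and the array RNA came from cells harvested with the media for the steroid measurements. The sample labels name no hCG. No source says whether the arrays of a group came from separate cultures, so that p-values measure only the spread between these samples.

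Signals were scaled to the 75th percentile of each array, which lay between 470 and 774 signal units, and 58.6% to 62.6% of the spots per array were well above background. *Mamld1* itself was at 44.1% to 77.0% of the control level in siRNA1-transfected MLTCs and at 45.3% to 68.6% in siRNA2-transfected MLTCs, against 85.2% to 119% on the control arrays, without overlap. All 8 Leydig cell markers examined (*Star*, *Cyp11a1*, *Cyp17a1*, *Hsd3b1*, *Insl3*, *Lhcgr*, *Nr5a1*, and *Inha*) were well above background on all 11 arrays, and so were 2 of 4 Sertoli, 2 of 4 germ cell, 1 of 3 peritubular, 1 of 3 endothelial, 2 of 4 keratinocyte and epithelial, and 0 of 3 macrophage markers on the array. The arrays lay on 3 slides, each of which held all 3 groups. Differences within slides are given below for this reason. The only control array was replicate 3 on slide 2 and replicate 4 on slide 3, so that both siRNAs were set against the same array there.

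The 250 bases before the annotated start are shown for *Ywhah*, as the member with the widest difference, and for *Ywhag* and *Ywhae*, as the members named above for Leydig cells. The sequences are from RefSeq (GRCm38.p6), run 5′ to 3′ on the strand of the gene, and capitals mark the cAMP response element, complete in *Ywhah* and its shorter TGACG form in *Ywhag*.
Ywhah, chr5:33018566-33018815, plus strand: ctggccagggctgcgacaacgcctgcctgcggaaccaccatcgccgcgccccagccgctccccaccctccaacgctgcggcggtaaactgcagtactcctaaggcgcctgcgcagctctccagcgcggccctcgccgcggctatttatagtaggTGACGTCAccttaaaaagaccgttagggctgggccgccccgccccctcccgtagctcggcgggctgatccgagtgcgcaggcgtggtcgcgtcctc
Ywhag, chr5:135934642-135934891, minus strand: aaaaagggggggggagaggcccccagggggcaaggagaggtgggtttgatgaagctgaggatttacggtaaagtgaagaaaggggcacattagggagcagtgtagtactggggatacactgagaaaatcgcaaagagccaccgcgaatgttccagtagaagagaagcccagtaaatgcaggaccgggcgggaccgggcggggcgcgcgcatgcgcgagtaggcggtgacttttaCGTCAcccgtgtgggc
Ywhae, chr11:75732637-75732886, plus strand: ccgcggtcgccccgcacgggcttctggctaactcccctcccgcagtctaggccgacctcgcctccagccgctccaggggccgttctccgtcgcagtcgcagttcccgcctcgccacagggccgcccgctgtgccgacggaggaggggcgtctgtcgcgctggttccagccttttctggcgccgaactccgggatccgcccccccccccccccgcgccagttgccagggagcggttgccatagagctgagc

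The whole element, TGACGTCA, was searched on both strands. It stood 96 to 89 bases before the start of *Ywhah* and before no other of the 5 members that the promoter table held, which lacked *Ywhab* and *Ywhaz*, and 1.55% of 32851 mouse promoters of this length hold it. The shorter form, TGACG, was present within the whole element of *Ywhah* on both strands, and 17.8% of promoters hold it. In *Ywhag* it stood on the strand opposite to the gene, 16 to 12 bases before the start, where the sequence above reads CGTCA. The GC box, GGGCGG, had 2 matches each in *Ywhah*, *Ywhae*, and *Ywhag*, those of *Ywhah* overlapping by 1 base, and 32.7% of promoters hold it. The CCAAT box, CCAAT, had 2 matches in *Ywhaq* and 1 in *Sfn* and is held by 33.8%, and the nuclear receptor site AAGGTCA was in none of the 5 and is held by 4.08%. These matches are descriptions of letters, and no binding was measured in these samples.

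**Figure D1:**
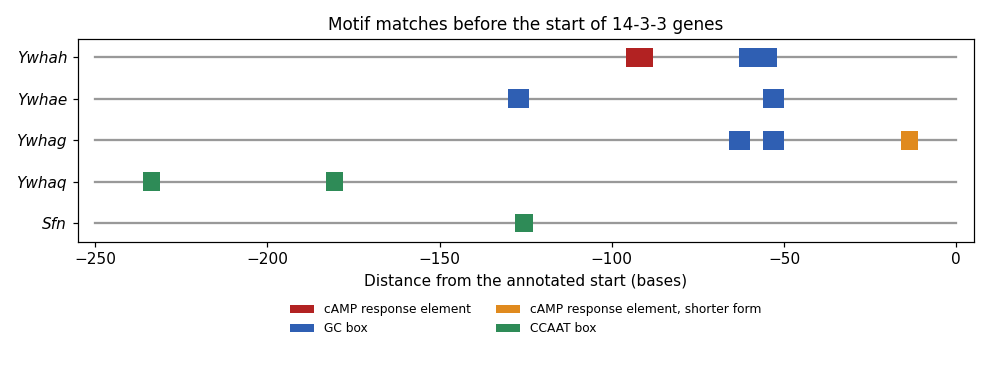
Positions of motif matches (colored boxes, both strands) in the 250 bases before the annotated start of 5 members; the horizontal axis is the distance from the start in bases. The whole cAMP response element is seen in *Ywhah* alone, 96 to 89 bases before the start; the shorter forms inside it are not drawn.

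*Ywhah* encodes 14-3-3 eta. Its level is given, as for all probes below, in percent of control, that is, of the geometric mean over all 4 control arrays. It was 103, 112, 84.9, and 102% on the control arrays, 294, 298, 314, and 320% on the siRNA1 arrays, and 288, 301, and 304% on the siRNA2 arrays. All siRNA arrays were high and lay far from the control arrays, and the siRNA groups overlapped with each other. In siRNA1-transfected MLTCs the mean was 306 ± 12.4% (SD, n = 4), a log2 difference from control of 1.61. For siRNA2 it was 298 ± 8.68% (SD, n = 3), a log2 difference of 1.57. The log2 difference between the siRNAs was 0.04. Within the 3 slides, the log2 difference from control was 1.45, 1.85, and 1.65 with siRNA1 and 1.42, 1.83, and 1.58 with siRNA2. Each slide had both siRNAs high, and slide 2 had the highest value with either. Both values of slide 2 were taken against control replicate 3, the lowest control array (84.9%), and are thus not independent. The signal before scaling was 13928 to 14871 units on the control arrays, 50475 to 68483 with siRNA1, and 41936 to 49127 with siRNA2, none of which was saturated. Of the markers of other cell types that were examined, the endothelial cadherin gene *Cdh5* had the same order of groups, at 94.9% to 104% of control on the control arrays, 191% to 266% with siRNA1, and 166% to 202% with siRNA2. Of the other 2 endothelial markers, *Pecam1* was not well above background on all arrays and *Tek* on none, and the part of such cells in the values of *Ywhah* was not tested.

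**Figure D2:**
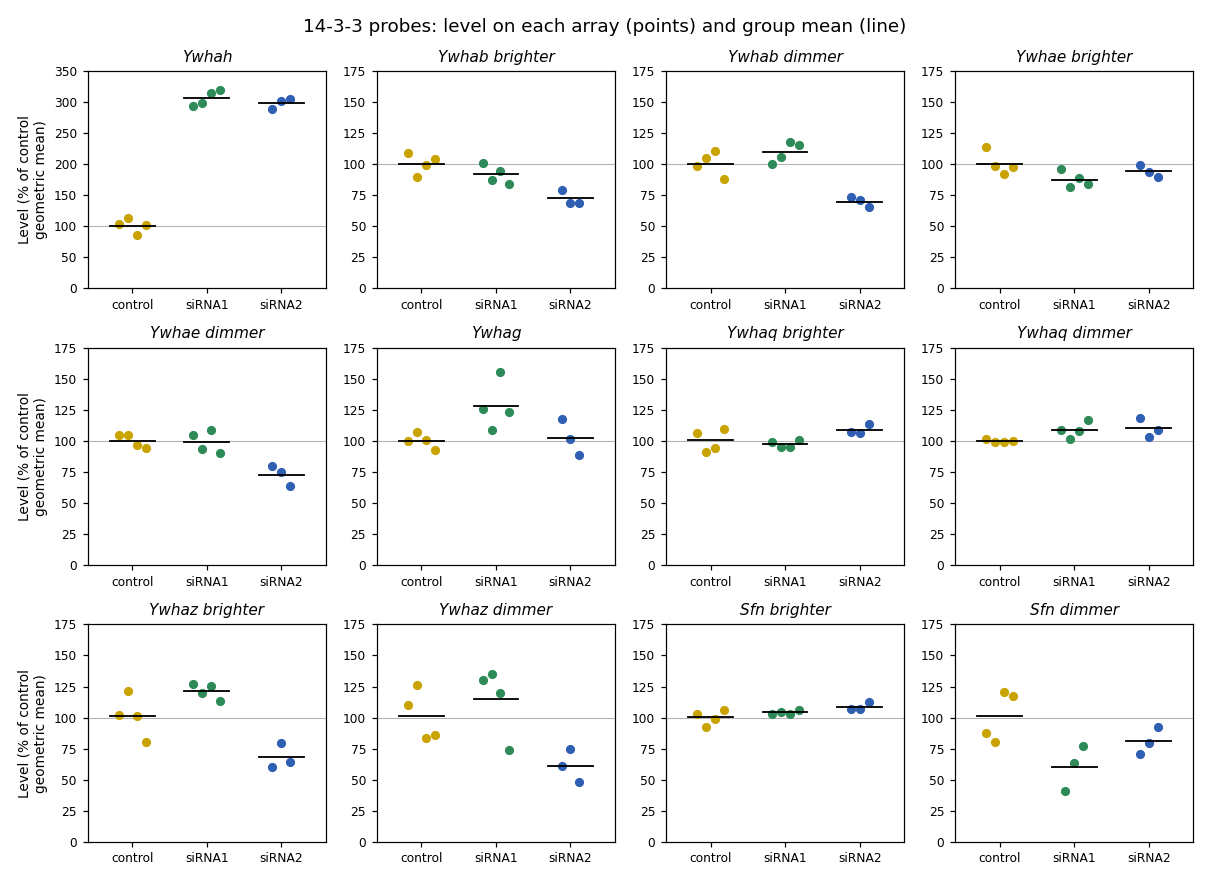
Level of each of the 12 probes (vertical axis, percent of control; the *Ywhah* panel has its own scale) on each control, siRNA1, and siRNA2 array (points), with the group mean (line). *Ywhah* lies at 288% to 320% on the siRNA arrays, and no other probe exceeds 156%; 1 siRNA1 spot of the dimmer *Sfn* probe was left out.

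None of the other members came above 156% of control on any array. Of the 11 probes of the other 6 genes, 1 was called with siRNA1 at an adjusted p of 0.05 or less (9.09%, against 27% of all 24250 probes tested, 11.8% called higher and 15.2% lower), and it was lower. With siRNA2, 5 probes of 3 genes were called, all of them lower (45.5%, against 18.4% of all probes, 7.7% called higher and 10.7% lower). The direct comparison of the siRNAs called 5 probes of the same 3 genes, *Ywhab*, *Ywhae*, and *Ywhaz*, all higher with siRNA1 than with siRNA2 (45.5%, against 23.5% of all probes, 11.7% called higher and 11.8% lower). The comparison of either siRNA with control uses the same control arrays, and the direct comparison uses the same siRNA arrays again. None of the 11 probes was called with a fold change of at least 2 in addition, against 2.99%, 2.25%, and 3.36% of all probes. An unadjusted limma p below 0.05 was found for 3, 5, and 6 of them. The share of all probes at that level was not taken and is no smaller than the 27%, 18.4%, and 23.5% called. The median log2 difference over the 11 probes was 0.06 with siRNA1 and -0.31 with siRNA2, against -0.05 and -0.01 over all probes tested, and it was 0.32 between the siRNAs, against -0.04. With slide as a block, the calls were 2, 6, and 6, but the shares of all probes above are from the fit without the block. Some cell type markers also differed between the siRNA groups. The mean level of the 8 Leydig cell markers was 78.1% to 98.8% of control with siRNA1 and 105% to 127% with siRNA2, against 89.4% to 112% on the control arrays. The 8 genes did not move alike. Before scaling, *Insl3* had 5760 to 10640 units on the control arrays and 13176 to 17237 with siRNA2. *Cyp17a1* had 26503 to 43210 units on the control arrays and 26233 to 27389 with siRNA2. The mean level of the 2 Sertoli cell markers tested was 78.3% to 95.2% with siRNA1 and 125% to 143% with siRNA2, against 90.8% to 116%. Of these, *Dhh* had 1255 to 1478 units before scaling on the control arrays and 2332 to 2460 with siRNA2. *Amh* had 74.4 to 115 units on the control arrays and 71.2 to 121 with siRNA2. Both marker means were higher with siRNA2 than with siRNA1, without overlap. The 5 14-3-3 probes called with siRNA2 were lower with siRNA2 than with siRNA1. The dimmer *Sfn* probe, called with siRNA1, had a mean of 60.3% with siRNA1 and 81.1% with siRNA2. The part of the markers in these results was not tested.

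**Figure D3:**
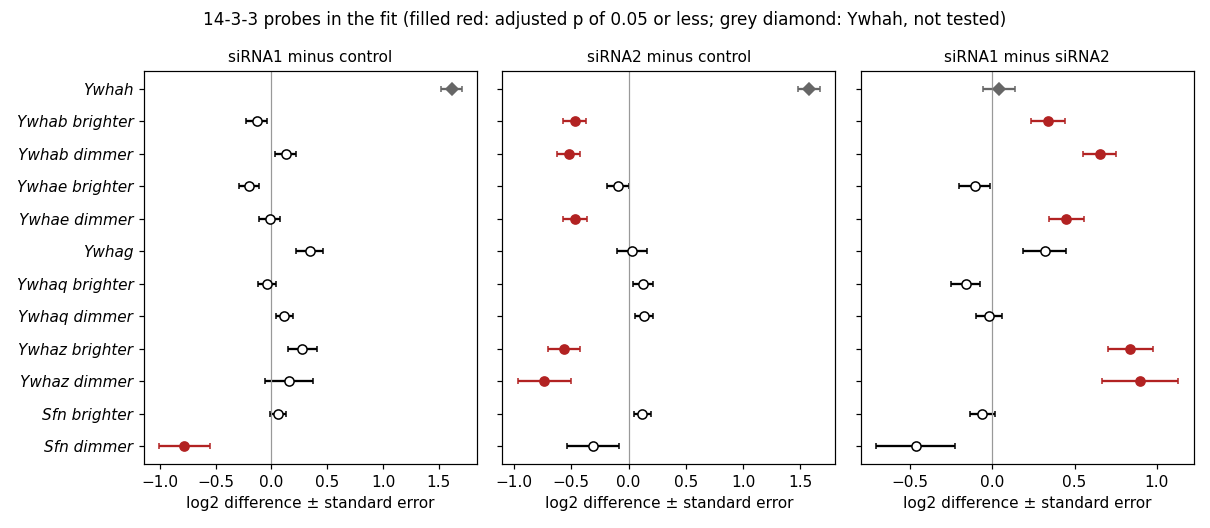
Log2 difference ± standard error (horizontal axes) of the 12 probes (rows) in limma's fit for siRNA1 minus control, siRNA2 minus control, and siRNA1 minus siRNA2; filled red points are called at an adjusted p of 0.05 or less, and *Ywhah* (grey diamond) is shown without a test. The *Ywhab*, dimmer *Ywhae*, and *Ywhaz* probes are called to the left of 0 with siRNA2 and to the right of 0 between the siRNAs, the dimmer *Sfn* probe is called to the left of 0 with siRNA1, and the axes of the 3 panels differ in range.

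*Ywhab* encodes 14-3-3 beta, a widely expressed member found in brain and many other tissues. The brighter probe was at 109, 89.5, 99.0, and 104% on the control arrays, 101, 87.0, 94.2, and 83.8% with siRNA1, and 79.2, 68.8, and 68.9% with siRNA2. All 3 siRNA2 arrays lay below all other arrays, whereas the siRNA1 and control arrays overlapped. The log2 difference was -0.47 with siRNA2 (SE 0.10, adjusted p = 0.00795, limma) and -0.13 with siRNA1 (adjusted p = 0.339, limma). The dimmer probe was at 98.5, 105, 110, and 88.1% on the control arrays, 100, 105, 117, and 116% with siRNA1, and 73.0, 70.9, and 65.1% with siRNA2. Again the siRNA2 arrays lay below all others. Its log2 difference was -0.52 with siRNA2 (SE 0.10, adjusted p = 0.00407, limma) and 0.13 with siRNA1 (adjusted p = 0.343, limma). The fall of *Ywhab* with siRNA2 was thus measured by both probes, and within the 3 slides it ranged from -0.59 to -0.32 for the brighter and from -0.63 to -0.44 for the dimmer probe on the log2 scale. The siRNAs differed from each other by 0.34 at the brighter (adjusted p = 0.0326) and by 0.65 at the dimmer probe (adjusted p = 0.000785) on this scale. That of the brighter probe was no longer called in 9 of 23 alternative settings, including those without siRNA1 replicate 1 (adjusted p = 0.0815), siRNA1 replicate 3 (0.0797), siRNA2 replicate 2 (0.117), or siRNA2 replicate 3 (0.110).

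*Ywhaz* encodes 14-3-3 zeta, which is widely expressed as well and binds the death promoter Bad. The brighter probe was at 102, 121, 101, and 80.0% on the control arrays, 127, 119, 125, and 113% with siRNA1, and 60.6, 79.2, and 64.6% with siRNA2. The siRNA2 arrays lay below all others, although 1 of them was within 1 percentage point of control replicate 4, and the siRNA1 arrays lay at the upper end of the control arrays or above. The log2 difference was -0.56 with siRNA2 (SE 0.14, adjusted p = 0.0156), 0.28 with siRNA1 (SE 0.13, adjusted p = 0.137), and 0.84 between the siRNAs (SE 0.14, adjusted p = 0.00123). For the dimmer probe, the levels were 110, 126, 83.8, and 85.7% on the control arrays, 130, 135, 120, and 74.2% with siRNA1, and 60.6, 74.4, and 47.9% with siRNA2. It was the more variable of the pair, with 1 siRNA1 array as low as an siRNA2 array. Its log2 difference was -0.74 with siRNA2 (SE 0.23, adjusted p = 0.0487), 0.16 with siRNA1 (adjusted p = 0.624), and 0.90 between the siRNAs (SE 0.23, adjusted p = 0.0163). The siRNA2 calls of *Ywhaz* depended on single arrays. Without siRNA2 replicate 1 or replicate 3, the brighter probe differed from control by -0.48 (adjusted p = 0.0626) or -0.53 (adjusted p = 0.0551). The dimmer probe lost its siRNA2 call in 13 of 23 alternatives, among them the omission of any control array, of siRNA1 replicate 1, 2, or 3, or of siRNA2 replicate 1 or 3, with adjusted p-values from 0.0525 to 0.171 in these, and it lost the difference between the siRNAs without siRNA2 replicate 3 (0.74, adjusted p = 0.0743). Within the slides, all differences from control with siRNA2 were negative, from -0.88 to -0.31 for the brighter and from -0.96 to -0.17 for the dimmer probe.

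*Ywhae* encodes 14-3-3 epsilon, which prefers dimers with other family members. Its probes differed in their result with siRNA2. The brighter probe was at 113, 98.0, 92.0, and 97.9% on the control arrays, 95.9, 81.1, 88.4, and 84.1% with siRNA1, and 99.0, 93.7, and 89.5% with siRNA2. The groups overlapped, and the log2 difference was -0.20 with siRNA1 (adjusted p = 0.126) and -0.09 with siRNA2 (adjusted p = 0.610, 95% confidence interval -0.30 to 0.12). The dimmer probe was at 105, 105, 96.7, and 94.4% on the control arrays, 105, 93.2, 109, and 90.3% with siRNA1, and 79.5, 75.1, and 63.6% with siRNA2. Here the siRNA2 arrays lay below all others, and the log2 difference was -0.47 with siRNA2 (SE 0.10, adjusted p = 0.00980, 95% confidence interval -0.70 to -0.24), -0.02 with siRNA1 (adjusted p = 0.927), and 0.45 between the siRNAs (adjusted p = 0.00924). Within the slides, the dimmer probe differed from control by -0.40, -0.37, and -0.57 with siRNA2. Both probes are assigned to *Ywhae* by accession, the confidence intervals overlap in part, and the difference between the probes was not tested. The files used here give no probe sequences, so that neither the position of a probe on the mRNA nor its match to other mRNAs was examined.

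**Figure D4:**
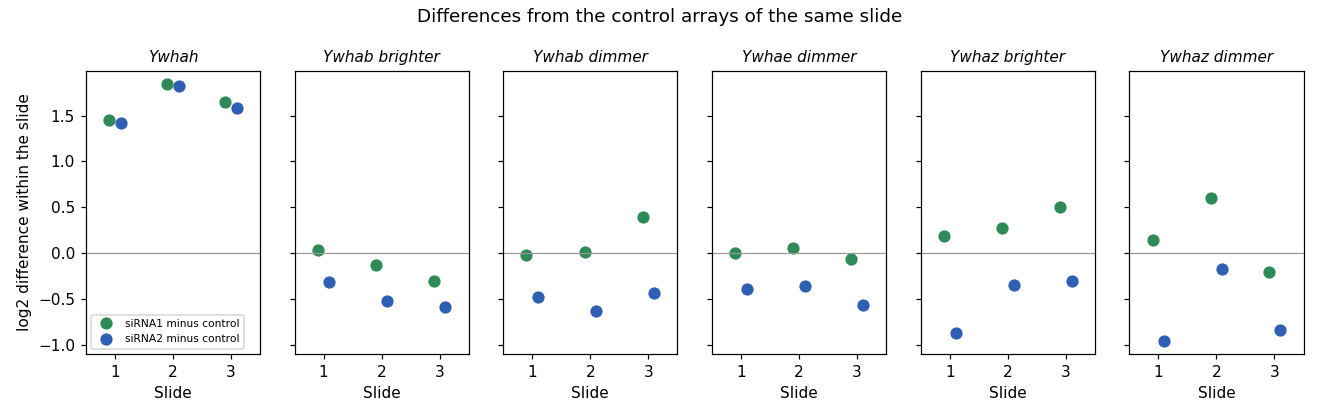
Log2 difference from the control arrays of the same slide (vertical axis) for siRNA1 (green) and siRNA2 (blue) on slides 1 to 3 (horizontal axis) for *Ywhah* and the 5 probes called with siRNA2. On slides 2 and 3, both siRNAs are set against the only control array of the slide. *Ywhah* lies between 1.42 and 1.85 in every slide, and the siRNA2 point is below 0 in all 3 slides for the other 5 probes. These 5 were drawn because the same arrays called them lower with siRNA2, so that their direction here is no separate support.

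*Ywhag* encodes 14-3-3 gamma, the member known to bind Star in Leydig cells. Its single probe was at 100, 107, 101, and 92.5% on the control arrays, 125, 108, 156, and 123% with siRNA1, and 117, 101, and 88.9% with siRNA2. Each siRNA1 array lay above all control arrays, replicate 2 by the narrowest margin, and the siRNA2 arrays overlapped with both groups. The log2 difference was 0.35 with siRNA1 (SE 0.12, adjusted p = 0.0556, 95% confidence interval 0.08 to 0.61), 0.03 with siRNA2 (adjusted p = 0.932), and 0.32 between the siRNAs (adjusted p = 0.105). The siRNA1 difference missed the threshold here and passed it in 7 of 23 alternatives, among them the slide block (0.36, adjusted p = 0.0415) and the omission of siRNA1 replicate 2 (0.42, adjusted p = 0.0292), siRNA2 replicate 1 (adjusted p = 0.0460), or siRNA2 replicate 3 (adjusted p = 0.0483). Within the slides it was 0.28, 0.36, and 0.42.

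*Ywhaq* encodes 14-3-3 theta, known from T cells and brain. The brighter probe was at 90.8% to 110% on the control arrays, 94.6% to 101% with siRNA1, and 106% to 113% with siRNA2. The dimmer probe was at 99.3% to 101% on the control arrays, 101% to 116% with siRNA1, and 103% to 119% with siRNA2. At the brighter probe, both siRNA groups overlapped with control, and all siRNA1 arrays lay below the siRNA2 arrays. At the dimmer probe, all siRNA2 arrays lay above the control arrays, and siRNA1 overlapped with both other groups. No comparison of *Ywhaq* was called. The widest log2 differences from control were 0.14 with siRNA2 for the dimmer probe (adjusted p = 0.298, 95% confidence interval -0.04 to 0.31) and 0.12 with siRNA2 for the brighter (adjusted p = 0.398, 95% confidence interval -0.07 to 0.32).

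*Sfn* encodes 14-3-3 sigma, a p53 target that holds cells before mitosis. The brighter probe was at 92.1% to 106% on the control arrays, 103% to 106% with siRNA1, and 107% to 112% with siRNA2. The siRNA2 arrays stood at the top of a narrow range, and the log2 difference was 0.12 with siRNA2 (adjusted p = 0.329, 95% confidence interval -0.05 to 0.29) and 0.06 with siRNA1 (adjusted p = 0.575). The dimmer probe, with signals of only 25.3 to 71.0 units, was at 87.9, 80.0, 121, and 118% on the control arrays, 40.6, 63.2, and 77.2% on 3 siRNA1 arrays, and 70.8, 79.8, and 92.6% with siRNA2. The spot on siRNA1 replicate 2 was marked as an outlier by the scanner software, with a signal of 2679 units, and was left out of the fit. The 3 remaining siRNA1 arrays lay below all control arrays, with a log2 difference of -0.78 (SE 0.23, adjusted p = 0.0280, n = 3 against 4, limma), and the siRNA2 difference was -0.31 (adjusted p = 0.415). The siRNA1 difference turned to 0.78 (adjusted p = 0.669) with the marked spot kept and to 0.078 with normexp background correction. It kept its direction but was no longer called in 8 of the 23 alternatives, including the omission of control replicate 3 (adjusted p = 0.0718), control replicate 4 (0.0728), siRNA1 replicate 1 (-0.52, adjusted p = 0.0919), or siRNA1 replicate 3 (0.0564). When the slide was entered as a block, it was -0.87 (adjusted p = 0.000813), the siRNA2 difference was -0.40 and called (adjusted p = 0.0387), and the difference between the siRNAs, -0.47, was called as well (adjusted p = 0.0184, against 0.201 without the block).

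Over the 11 arrays, Pearson's r with the *Ywhah* probe was between -0.64 and 0.69 for the other 11 probes, lowest for the dimmer *Sfn* and highest for the dimmer *Ywhaq* probe. For the dimmer *Sfn* probe it was taken over 10 arrays, without the outlier-marked spot. The 5 probes of other genes most like *Ywhah* by Pearson's r over the 11 arrays were those of *Nelfb* (r = 0.993), a subunit of the negative elongation factor, *Ash2l* (0.991), a core subunit of histone H3 lysine methyltransferase complexes, *Dcun1d2* (0.991), a cullin neddylation factor, *Gopc* (0.990), a Golgi scaffold protein, and *Pias2* (0.988), a SUMO ligase. All 5 were high with both siRNAs, by log2 differences from 0.61 for *Ash2l* with siRNA1 to 1.07 for *Nelfb* with siRNA2, and they are a description of genes with a step between control and siRNA arrays. Of the deviations from the group means, which leave this step out, r with *Ywhah* was 0.41 for *Gopc* to 0.79 for *Nelfb*, and arrays share scaling and slides.

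The genes around the family were taken from 7 lists of known clients of 14-3-3 proteins, of the kinases that make client sites, and of the kinases that phosphorylate 14-3-3 proteins themselves. Of their 84 genes, 81 had a named probe and 72 were tested, each by its brightest probe. With siRNA1, 10 of the 72 were called (13.9%, against 29.3% of 11818 genes tested by 1 probe each, 10.6% called higher and 18.7% lower), 7 higher and 3 lower. With siRNA2, 10 were called as well (13.9%, against 20.2%, 8.02% called higher and 12.2% lower), 3 higher and 7 lower. The median log2 difference was 0.04 with siRNA1 and -0.01 with siRNA2, against -0.08 and -0.02 over all genes. With slide as a block, 19 and 20 genes were called. The share of all genes called with the block was not taken, so that these counts cannot be set against it. Those added with siRNA1 were *Yap1*, *Pfkfb2*, *Lrrk2*, and *Mapk8*, which were higher, and *Dbi*, *Hdac5*, *Hdac7*, *Akt1*, and *Mapkapk2*, which were lower. Those added with siRNA2 were *Foxo1*, *Chek1*, *Pfkfb2*, *Prkaca*, and *Mark2*, which were higher, and *Hdac5*, *Hdac7*, *Wee1*, *Araf*, and *Tsc2*, which were lower.

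None of the 7 genes of steroidogenesis and the outer mitochondrial membrane was called with siRNA1 or siRNA2 (against 29.3% and 20.2% of all genes). None had an unadjusted limma p below 0.05, and none was called by the methods' t-test after adjustment. The shares of all genes at these levels were not taken. With only 7 genes, the absence of calls does not show that the list was unaffected. In the fit with a slide term, *Dbi*, an acyl-CoA binding protein that binds Tspo, was lower with siRNA1 (-0.26, adjusted p = 0.0265). Without that term, *Cyp11a1*, the side-chain cleavage enzyme, was lower with siRNA1 than with siRNA2 (-0.43, adjusted p = 0.0371). *Star*, which carries cholesterol into mitochondria, was at 81.7% to 129% on the control arrays, 87.0% to 115% with siRNA1, and 90.2% to 126% with siRNA2. Its log2 difference was 0.06 with siRNA1 (95% confidence interval -0.29 to 0.40, adjusted p = 0.83) and 0.16 with siRNA2 (adjusted p = 0.619). *Tspo*, the translocator protein of the outer membrane, differed by -0.04 (adjusted p = 0.844) and 0.13 (adjusted p = 0.629), and *Vdac1*, the channel that 14-3-3 epsilon binds, by 0.12 (adjusted p = 0.385) and -0.02 (adjusted p = 0.936), on the log2 scale with siRNA1 and siRNA2.

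Of the 14 survival and transcription clients tested, 1 was called with each siRNA (7.14%, against the 29.3% and 20.2% of all genes given above). *Cby1*, an antagonist of beta-catenin, was lower with siRNA1 (-0.43, adjusted p = 0.00585) and *Mlxipl*, the carbohydrate response factor, higher with siRNA2 (0.56, adjusted p = 0.0415). The clients best known from apoptosis, growth control, and insulin signaling were not called. *Bad* differed by 0.22 (adjusted p = 0.687) and 0.11 (adjusted p = 0.895), *Yap1* by 0.32 (adjusted p = 0.249) and 0.02 (adjusted p = 0.963), and *Foxo1* by 0.19 (adjusted p = 0.105) and 0.27 (adjusted p = 0.0526) with siRNA1 and siRNA2. The fit with a slide term called *Yap1* with siRNA1 (0.43, adjusted p = 0.0192) and *Foxo1* with siRNA2 (0.25, adjusted p = 0.0411), both higher. It also called the class IIa histone deacetylases *Hdac5* (-0.33, adjusted p = 0.0225, and -0.35, adjusted p = 0.0305) and *Hdac7* (-0.42, adjusted p = 0.00196, and -0.26, adjusted p = 0.0312) lower with siRNA1 and siRNA2. Without that term, the dimmer *Hdac7* probe differed by only -0.06 (adjusted p = 0.778) and -0.13 (adjusted p = 0.643). One siRNA1 array had *Bad* at 255% of control, against 72.3% at the lowest.

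Of the 6 cell cycle clients, 3 were called with siRNA1, all higher (50%, against 29.3% of all genes, 10.6% called higher), and the methods' t-test called 1 of the 6 after adjustment. None was called with siRNA2 (against 20.2% of all genes), where 3 had an unadjusted limma p below 0.05 and the methods' t-test called 0. The share of all genes at that unadjusted level was not taken and is no smaller than 20.2%. The 3 called genes were the mitotic phosphatases *Cdc25b* (0.39, adjusted p = 0.0250) and *Cdc25c* (0.35, adjusted p = 0.00984) and the mitotic inhibitor kinase *Wee1* (0.57, adjusted p = 0.0417). With siRNA2, the corresponding log2 differences were 0.33 (adjusted p = 0.0884), 0.12 (adjusted p = 0.425), and -0.48 (adjusted p = 0.135). Only *Wee1* of the 3 differed between the siRNAs, by 1.05 (adjusted p = 0.00316), and in the fit with a slide term it was lower with siRNA2 (-0.42, adjusted p = 0.0386) and the checkpoint kinase *Chek1* higher (0.29, adjusted p = 0.0179). The other 2 *Cdc25b* probes were higher with siRNA1, by 0.40 (adjusted p = 0.00508) and 0.71 (adjusted p = 0.00113). With siRNA2, 1 of them was called (0.35, adjusted p = 0.0203) and the other was not (0.30, adjusted p = 0.127).

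Of the 20 signaling and cytoskeleton clients, 3 were called with siRNA1 and 3 with siRNA2 (15% each, against 29.3% and 20.2% of all genes), and 2 of these with both in the same direction. Some genes not counted had a dimmer probe called. These included, higher with siRNA1, *Sos1* (1.18, adjusted p = 0.000103), *Tbc1d4* (0.59, adjusted p = 0.00894), and *Pfkfb2* (0.41, adjusted p = 0.0443). A dimmer *Arhgef2* probe was lower with siRNA2 (-0.49, adjusted p = 0.0135). *Akt1s1*, an inhibitory subunit of mTOR complex 1, was at 91.7% to 110% on the control arrays, 67.3% to 77.5% with siRNA1, and 70.7% to 87.8% with siRNA2. The groups did not overlap with control, and the log2 difference was -0.45 (adjusted p = 0.00422) and -0.34 (adjusted p = 0.0395), the latter no longer called in 13 of 23 alternatives, with adjusted p-values up to 0.142 when 1 array was left out. *Cdk16*, a kinase of the PCTAIRE group, was at 92.2% to 108% on the control arrays, 126% to 190% with siRNA1, and 153% to 199% with siRNA2. It was higher on every siRNA array, by log2 differences of 0.63 (adjusted p = 0.00498) and 0.76 (adjusted p = 0.00385), and its second probe rose by 0.89 and 0.77. Of the kinases upstream of MAP kinase, *Araf* was lower with siRNA1 (-0.55, adjusted p = 0.00589), and with a slide term also with siRNA2 (-0.30, adjusted p = 0.00894), and *Braf* was lower with siRNA2 (-0.33, adjusted p = 0.0200). The 2 dimmer *Braf* probes were not called with siRNA2. The single monoamine enzyme gene tested, *Tph1*, was not called with either siRNA and had no unadjusted limma p below 0.05.

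Of the 19 kinases of client sites tested, 3 were called with siRNA1, all higher (15.8%, against 29.3% of all genes), and 4 with siRNA2, 1 higher and 3 lower (21.1%, against 20.2%). The dimmer probe of *Prkd3*, a gene not counted, was higher with siRNA1 (0.55, adjusted p = 0.00536). *Sgk1*, the serum and glucocorticoid regulated kinase, was at 94.4% to 109% on the control arrays, 143% to 163% with siRNA1, and 201% to 204% with siRNA2. The 3 groups did not overlap, and the log2 difference was 0.60 (SE 0.08, adjusted p = 0.000205) with siRNA1, 1.02 (SE 0.08, adjusted p = 1.64e-05) with siRNA2, and -0.42 between the siRNAs (adjusted p = 0.00364). *Mark3*, a kinase that makes 14-3-3 sites on Cdc25c, went in opposite directions. It was at 85.9% to 108% on the control arrays, 130% to 143% with siRNA1, and 34.2% to 38.7% with siRNA2. The log2 difference was 0.44 with siRNA1 (SE 0.09, adjusted p = 0.00460), -1.49 with siRNA2 (SE 0.10, adjusted p = 4.11e-06), and 1.92 between the siRNAs (adjusted p = 8.36e-07). Its other 2 probes gave 0.48 and 0.39 with siRNA1 and -1.51 and -0.73 with siRNA2, all called.

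The catalytic subunits of AMP-activated protein kinase also differed between the siRNAs. *Prkaa2* was higher with siRNA1 (0.95, adjusted p = 0.000227) and at -0.29 with siRNA2 (adjusted p = 0.163), and the difference between the siRNAs was 1.24 (adjusted p = 7.10e-05). *Prkaa1* was lower with siRNA2 (-0.61, adjusted p = 0.00154) and level with control with siRNA1 (-0.0012, 95% confidence interval -0.20 to 0.20, adjusted p = 0.995), with 0.60 between the siRNAs (adjusted p = 0.00117). *Prkd2*, a protein kinase D, was lower with siRNA2 (-0.86, adjusted p = 0.000807). Of the 5 kinases that phosphorylate 14-3-3 proteins, none was called with siRNA1 (against 29.3% of all genes). None had an unadjusted limma p below 0.05 there, and the methods' t-test called 0 after adjustment. The shares of all genes at these levels were not taken, and 5 genes are few for such a comparison. The fit with a slide term called *Mapk8* higher (0.58, adjusted p = 0.0219) and *Mapkapk2* lower with siRNA1 (-0.29, adjusted p = 0.0430). Without that term, 1 of the 2 dimmer *Mapk9* probes was higher with siRNA1 (0.49, adjusted p = 0.0171). With siRNA2, 2 of the 5 were lower (40%, against 20.2% of all genes), *Csnk1a1* (-0.34, adjusted p = 0.0101) and *Prkcd* (-0.54, adjusted p = 0.00169). Apart from *Akt1s1*, *Cdk16*, *Sgk1*, *Star*, *Tspo*, *Vdac1*, *Bad*, *Yap1*, and *Foxo1*, the genes of these lists were named after their values were seen.

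**Figure D5:**
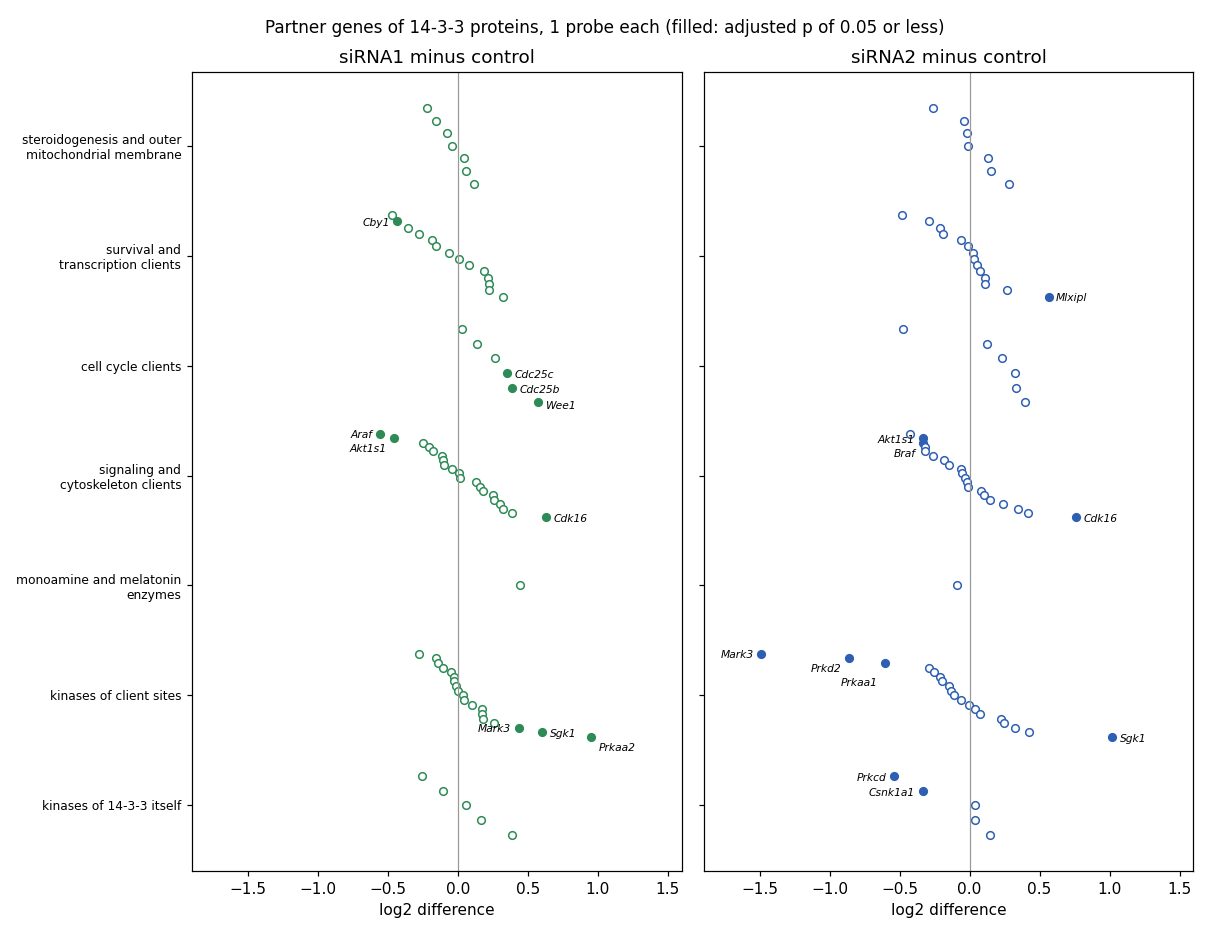
Log2 difference from control (horizontal axis) of the 72 partner genes tested, grouped by list, with siRNA1 (left panel) and siRNA2 (right panel), 1 point per gene; filled and named points are called at an adjusted p of 0.05 or less. The 7 steroidogenesis genes have open points, from -0.22 to 0.12 in the left panel and from -0.26 to 0.28 in the right. *Sgk1* and *Cdk16* lie to the right of 0 in both panels, and *Mark3* lies at 0.44 in the left panel and at -1.49 in the right.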

How the data were processed

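Gene expression was measured on 11 one-color Agilent arrays. Per the file headers, the deposited signal intensities were made with Feature Extraction 9.5.1.1, which corrected background on each array without normalization between arrays. The scanner files also hold the spot marks used here, and a table of group averages and t-tests deposited by the authors was not used. Here, the log2 of each intensity was taken relative to the 75th percentile of its array (control spots excluded), outlier-marked spots were dropped, and replicate spots were averaged per probe. Of 41174 probes, 24375 were named by RefSeq accession. A probe was tested if 1 or more groups had it well above background on all their arrays, which held for 24250 probes, with limma 3.58.1 (R 4.3.3; lmFit, contrasts.fit, eBayes) over the 3 groups, with Benjamini-Hochberg adjustment and a call at an adjusted p of 0.05 or less, and all p-values are two-sided. The number of arrays limits the precision. All 12 14-3-3 probes were well above background on all 11 arrays. No array was left out.

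The members and the partner lists were chosen with earlier results of these data known. Named were every member probe, partner genes called in the same direction with both siRNAs, *Star*, *Tspo*, *Vdac1*, *Bad*, *Yap1*, and *Foxo1*, and the 5 probes most like *Ywhah*. A further gene of this rule is not reported here. Alternatives were normexp background correction (offset 50, on median signals), quantile normalization, median scaling, no filter, a filter on all 11 arrays, outlier spots kept, slide or replicate number as a block, separate fits, the methods' t-test with adjustment, eBayes with trend and robust options, a fold change of at least 2, and omission of each array. Normexp with extreme local backgrounds replaced (above 2 times the median of the array) was chosen after the data were seen. The fit was tested on simulated data.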

Additional observations from a re-analysis of the deposited data

Results flagged for a closer look

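No sample of a 14-3-3 probe stood far from the others of its group by Dixon's test at the 95% level, in the 23 groups of 4 arrays tested. The siRNA2 groups, of fewer arrays, were not tested. Nor was the siRNA1 group of the dimmer *Sfn* probe, where the outlier-marked spot of 2679 units had been left out beforehand. The effect of siRNA1 and siRNA2 on the same probe differed, by limma's direct comparison of the siRNAs, for 5 probes. The log2 difference, siRNA1 minus siRNA2, was 0.34 for the brighter and 0.65 for the dimmer *Ywhab* probe (adjusted p = 0.0326 and 0.000785), 0.45 for the dimmer *Ywhae* probe (adjusted p = 0.00924), and 0.84 for the brighter and 0.90 for the dimmer *Ywhaz* probe (adjusted p = 0.00123 and 0.0163). In each of the 5, the siRNA1 value was the higher, and the comparison called 23.5% of all probes tested.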

How the results depend on the processing

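Of the 11 probes of the members other than *Ywhah*, 1 was called with siRNA1, 5 with siRNA2, and 5 between the siRNAs, and of the partner genes 10 and 10. Normexp gave 0, 0, 0, 0, and 1. It shifted the median of all probes by 0.26, 0.18, and 0.15 on the log2 scale in the 3 comparisons and met local backgrounds of up to 45940 units, and with such backgrounds replaced the counts were 2, 5, 6, 13, and 10. A fold change of at least 2 in addition left 0, 0, 0, 0, and 2. With siRNA1, median scaling, no filter, kept outlier spots, and the methods' t-test after adjustment each called 0 member probes, and slide as a block and the trend and robust options each called 2. The t-test called 3 with siRNA2 and 3 between the siRNAs, of which 1, the brighter *Ywhaq* probe, was lower with siRNA1 (-0.16, adjusted p = 0.0414). Partner calls with siRNA2 were 6 with median scaling. With slide as a block, 19 and 20 partner genes were called, and shares of all probes and genes were taken only without a block. Omission of 1 array gave 0 to 2, 3 to 5, and 3 to 5 member probes and 8 to 12 and 6 to 11 partner genes, the 6 without siRNA2 replicate 2.

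Replicate numbers were not taken to pair the samples, because the labels give no shared origin and not every pair of arrays with the same number had deviations from the group means that correlated above 0.1 (7 of 10, lowest -0.18). The median correlation was 0.30 with the same number and -0.10 with different numbers, of which 8 of 30 pairs were above 0.1, and it was 0.30 on the same slide and -0.13 on different slides. Of the 11 arrays, 9 correlated best, among arrays of other groups, with one of their own number, a hint from the data and not the design. With the replicate number as a block, the calls were 1, 5, 6, 16, and 19.

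The called log2 difference of the dimmer *Sfn* probe with siRNA1, -0.78, turned to 0.078 with normexp and to 0.78 with outlier spots kept. Other changes of direction concerned differences that were not called. Under normexp these were *Ywhah* between the siRNAs (-0.067, not tested) and, with siRNA1, *Ywhab* dimmer (-0.040), *Ywhaq* dimmer (-0.21), *Ywhaz* brighter (-0.021), *Sfn* brighter (-0.30), *Star* (-0.32), *Vdac1* (-0.22), and *Foxo1* (-0.10), and with siRNA2, *Ywhag* (-0.16), *Ywhaq* brighter (-0.081) and dimmer (-0.067), *Sfn* brighter (-0.13) and dimmer (0.32), *Star* (-0.10), and *Tspo* (-0.12). Under quantile normalization they were, with siRNA1, *Ywhae* dimmer (0.035), *Ywhaq* brighter (0.060), and *Tspo* (0.041), with siRNA2, *Vdac1* (0.024), and between the siRNAs, *Ywhaq* dimmer (0.032). Median scaling gave 0.027 for *Ywhae* dimmer and 0.0031 for *Ywhaq* brighter with siRNA1 and 0.019 for *Ywhaq* dimmer between the siRNAs. Kept outlier spots gave 1.09 for *Sfn* dimmer between the siRNAs and -0.52 and -0.64 for *Bad*. Slide as a block gave 0.0044 for *Ywhae* dimmer and -0.047 for *Star* with siRNA1. The replicate block gave -0.0061 and -0.20 for *Bad*, and 0.021 and -0.013 for *Vdac1* and *Yap1* with siRNA2. Normexp with backgrounds replaced gave 0.0028 for *Ywhaq* dimmer between the siRNAs and -0.10 for *Bad* with siRNA1. When 1 array was left out, the range spanned 0 for *Ywhae* dimmer (-0.060 to 0.029), *Ywhaq* brighter (-0.086 to 0.0053), *Star* (-0.041 to 0.18), *Tspo* (-0.13 to 0.034), and *Bad* (-0.15 to 0.45) with siRNA1, for *Ywhag* (-0.075 to 0.12), *Tspo* (-0.018 to 0.26), *Vdac1* (-0.077 to 0.032), and *Yap1* (-0.19 to 0.19) with siRNA2, and for *Ywhaq* dimmer (-0.067 to 0.034) between the siRNAs. The causes were not tested. The dimmer *Sfn* probe had signals near the lower end of those above background, and the 3 or 4 arrays per group limit all comparisons.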
